A study of Mus musculus with 3 samples.

Results

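Selenoproteins, peroxiredoxins, enzymes of glutathione synthesis and metallothioneins hold down peroxides and free metal ions in the liver, and 9 of their genes were followed here in single-cell libraries of electroporated mouse liver. The members are named by their role and are Sepp1, Gpx1, Gpx4, Prdx1, Srxn1, Txnrd1, Gclm, Mt1 and Mt2, each taken by its symbol from the count tables, which hold 19091 genes in all. All 9 were present in the 3 libraries.

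Adult C57BL/6 mice were used, and every library pools cells from 3 livers, so that each group is 1 library with no replicate. The control library came from mice given sham surgery and taken after 1 day according to the labels, while the study's methods describe the matching uninjured area of control livers. The other libraries came from liver injured by irreversible electroporation (IRE), in which short electric pulses permeabilise cell membranes, and collected at 1 or 7 days post-injury (p.i.). For every library a 4 mm punch was dissociated with enzymes before capture, taken from the pulsed area in the injured livers. The labels give 8 pulses of 50 ms at 75 V with 1 s between them, and the methods give 30 V. Cells were captured in droplets with barcoded beads (Drop-seq), and each captured transcript was counted once by its unique molecular identifier (UMI).

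As background, hydrogen peroxide is reduced by glutathione peroxidases at the expense of glutathione and by peroxiredoxins at the expense of thioredoxin, and both couples are recharged from NADPH. The transcription factor NRF2 (Nfe2l2) with a small MAF partner drives many of these genes through antioxidant response elements when KEAP1 no longer holds it, and BACH1 competes for the same elements. Metallothioneins are small cysteine-rich proteins that bind zinc and copper, and their genes are switched on by MTF-1 through metal response elements, by glucocorticoids and in the acute phase response of the liver. Selenoprotein P, encoded by Sepp1, carries selenium from the liver to other tissues.

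The promoters of the metallothioneins and of 3 inducible antioxidant genes are shown because they hold matches to the core of these elements. All 9 members were matched to RefSeq start sites on build GRCm38.p6, with Sepp1 under its RefSeq symbol Selenop. Each sequence is the 250 bases before the annotated start on the + strand, 5′ to 3′. Capitals mark matches on either strand to the metal response core (TGCACNC or TGCGCNC) in Mt1 and Mt2, and to the antioxidant response core (TGACNNNGC or TGAGNNNGC) in Srxn1, Prdx1 and Gclm.
Mt1, chr8:94178839-94179088: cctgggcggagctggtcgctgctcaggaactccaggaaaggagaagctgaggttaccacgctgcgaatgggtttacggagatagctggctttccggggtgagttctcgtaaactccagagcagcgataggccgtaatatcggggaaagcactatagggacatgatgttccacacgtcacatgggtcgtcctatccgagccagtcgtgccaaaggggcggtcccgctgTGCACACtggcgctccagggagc
Mt2, chr8:94172368-94172617: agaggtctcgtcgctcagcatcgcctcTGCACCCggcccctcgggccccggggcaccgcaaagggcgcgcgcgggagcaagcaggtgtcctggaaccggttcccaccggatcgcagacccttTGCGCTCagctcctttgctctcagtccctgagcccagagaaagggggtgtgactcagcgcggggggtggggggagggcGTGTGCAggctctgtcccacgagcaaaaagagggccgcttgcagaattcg
Srxn1, chr2:152105274-152105523: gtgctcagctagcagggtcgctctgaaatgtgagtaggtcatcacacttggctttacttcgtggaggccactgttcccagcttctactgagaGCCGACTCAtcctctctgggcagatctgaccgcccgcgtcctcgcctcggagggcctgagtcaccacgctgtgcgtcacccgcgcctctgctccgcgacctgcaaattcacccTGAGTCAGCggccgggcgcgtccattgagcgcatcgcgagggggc
Prdx1, chr4:116685349-116685598: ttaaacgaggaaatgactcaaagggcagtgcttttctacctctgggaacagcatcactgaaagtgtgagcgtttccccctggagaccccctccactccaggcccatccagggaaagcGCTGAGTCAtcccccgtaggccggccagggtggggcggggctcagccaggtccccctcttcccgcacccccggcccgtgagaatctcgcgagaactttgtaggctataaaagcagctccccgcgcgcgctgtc
Gclm, chr3:122245307-122245556: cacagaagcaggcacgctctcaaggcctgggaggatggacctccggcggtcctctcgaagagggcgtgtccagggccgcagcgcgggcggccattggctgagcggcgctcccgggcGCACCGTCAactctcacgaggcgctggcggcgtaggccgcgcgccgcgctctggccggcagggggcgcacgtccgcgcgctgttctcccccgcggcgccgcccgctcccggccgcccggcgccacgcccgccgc

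Mt2 held 3 metal response matches, which 1.26% of 32851 RefSeq windows of this length did, and Mt1 held 1, where 21.4% of windows held at least 1. Mt2 lies on the same chromosome just upstream of Mt1. Srxn1, which encodes sulfiredoxin, held 2 antioxidant response matches, a number reached by 3.18% of windows. Prdx1 and Gclm held 1 each, where 23% of windows held at least 1, and Mt2 and one of the 3 Txnrd1 windows also held 1. Metal response matches were not limited to the metallothioneins, since Gclm held 2 and Srxn1 held 1, which are not in capitals. The match of Mt2 at 79 to 71 bases before the start, that of Srxn1 at 45 to 37 and that of Prdx1 at 133 to 125 each overlapped the AP-1 letters TGAGTCA, which occurred in 4.46% of windows. Srxn1 and Prdx1 each held 2 of these, as 0.167% of windows did. None of the 3 motifs occurred in the windows of Sepp1, Gpx1 or Gpx4, and these matches are letters only, with no binding measured. Bases past the annotated start or further upstream were not searched. A low count in a window, as in Mt1, therefore does not show that a promoter lacks the element.

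Barcodes with at least 200 detected genes were used, 10386 in control liver, 9253 at day 1 p.i. and 5624 at day 7 p.i., holding 8013800, 6107866 and 3058967 UMIs. The median UMIs per barcode were 595, 509 and 456.5. Mitochondrial transcripts made up 20.5%, 21.7% and 4.10% of UMIs, and 20 hepatocyte marker genes 0.243%, 3.53% and 0.109%. Pairs of libraries shared 44 to 149 barcode sequences, at most 2.65% of the smaller library. A level is a gene's UMI count scaled to 1000000 UMIs in its library or cell class (CPM), with 95% exact Poisson intervals, and ratios have 95% conditional binomial intervals. These intervals cover counting error only, since a library without a replicate has no measured spread between animals, and no test across conditions was possible. Within library sums, fewer cells of a type and less RNA per cell cannot be told apart.

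Cells were assigned to classes from marker genes, which placed 13351 of 25263 barcodes (52.8%). The largest classes were Kupffer-like (3702 barcodes), sinusoidal endothelial-like (2324), monocyte-like (1777) and a macrophage class with Gpnmb, Arg1, Ccl2 and Ccl7 among its markers (1385), called Gpnmb/Arg1 macrophage-like below. In each library where it was used, each of these 4 classes had at least 4 of its own markers among its 10 leading genes by fold. Since the same markers placed the barcodes, this gives no independent support for the class names. The last class was led by Mmp12, Gpnmb and Atp6v0d2 in control liver and by Ccl7, Inhba and Ccl2 at day 7 p.i., so that its leading genes differed between libraries. It held 486, 25 and 874 barcodes, and no level is given for the 25 of day 1 p.i. Monocyte-like barcodes at day 1 p.i. were led by an immunoglobulin gene.

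All barcodes were also grouped by likeness of expression, with the members and mitochondrial genes left out (Leiden clusters), and barcodes of a class often lay in different clusters in different libraries. Cluster 7 held 96.6% of the endothelial-like barcodes of control liver and 55.4% of those of day 7 p.i., while cluster 2 held 84.2% of those of day 1 p.i. Kupffer-like barcodes lay mostly in cluster 8 in control liver (70.4%) and in cluster 3 at day 1 p.i. (91.9%), and at day 7 p.i. 45.4% lay in cluster 8 and 46.3% in cluster 0, led by Ccl2 and Arg1. That cluster also held 92.9% of the monocyte-like and 96.9% of the Gpnmb/Arg1 macrophage-like barcodes of day 7 p.i., where cluster 9 held 84.9% of the former and cluster 5 held 91.4% of the latter in control liver. Neutrophil-like barcodes lay mostly in cluster 10 in control liver (55.2%) and at day 7 p.i. (95.9%). At day 1 p.i. only 3.79% of them lay there and 55.3% lay in cluster 1, led by Apob and Scd1. Monocyte-like barcodes of day 1 p.i. were spread over many clusters, with 16.4% in cluster 9. Ratios within a class are thus partly or mostly between barcodes of different clusters. This holds in part also for the endothelial and neutrophil-like classes at day 7 p.i., although their main cluster was that of control liver. Of endothelial-like barcodes at day 7 p.i., 22.8% lay in cluster 14, led by Clu and Epcam, and 12.9% in cluster 0. Of neutrophil-like barcodes in control liver, 12.5% lay in cluster 0. Cell state and library cannot be told apart in ratios within a class.

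At day 1 p.i., 1 of the 9 members was past 2-fold of control, and at day 7 p.i. 3 were. Sepp1 stood at 2.32-fold of control at day 1 p.i. and then at 0.177 of control at day 7 p.i. The glutathione synthesis gene Gclm stood at 1.62-fold and then 3.32-fold, and Srxn1 reached 2.52-fold at day 7 p.i. Among 11357 genes with at least 50 UMIs in the control and day 1 libraries together, 12.2% were at least 2-fold higher at day 1 p.i. and 5.86% stood at or below 0.5 of control. Among 10227 genes compared at day 7 p.i., 8.79% were higher and 21.8% lower by the same measure. The members' median log2 ratio was 0.08 at day 1 p.i. beside 0.04 over all genes, and 0.79 at day 7 p.i. beside -0.21 over all genes. Between the injured libraries, Txnrd1, Srxn1 and Gclm were past 2-fold higher at day 7 than at day 1 p.i. and Sepp1 lower, where 11.6% of 10271 genes were higher and 27.8% lower.

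**Figure D1:**
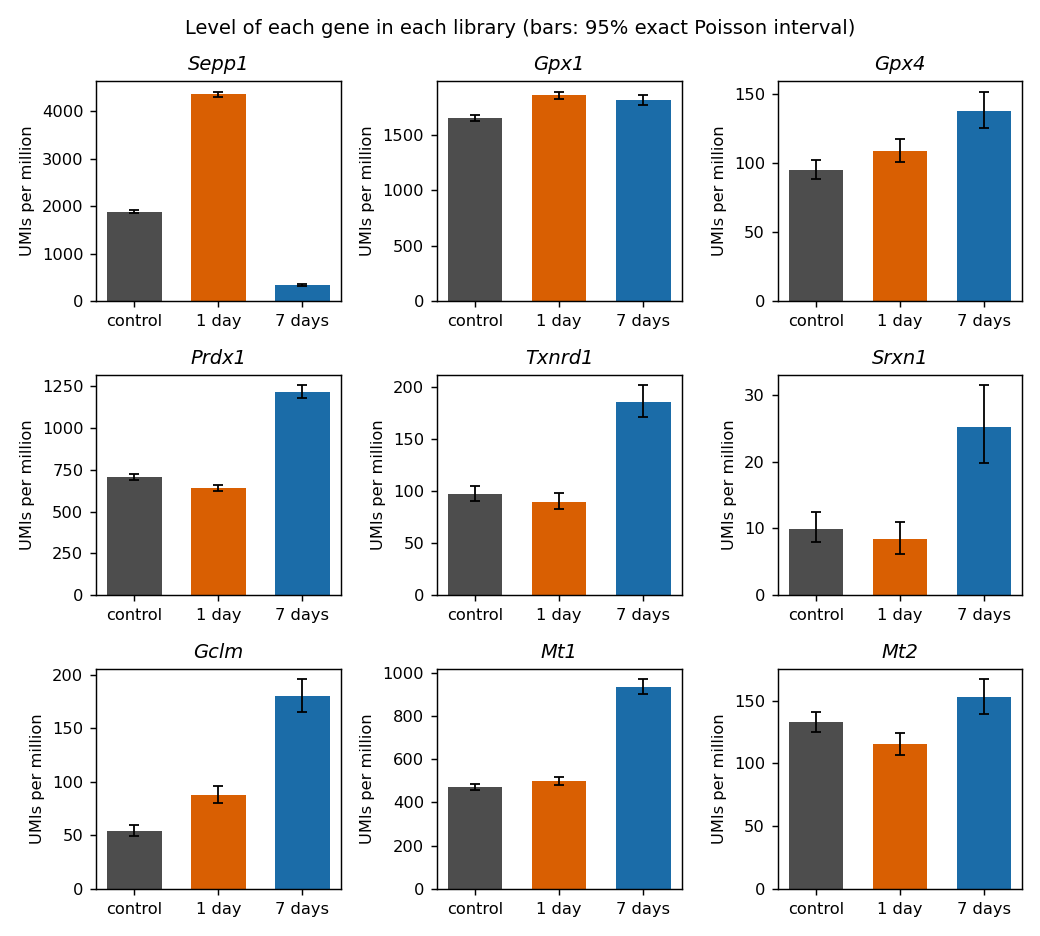
Level of each of the 9 members in the control, day 1 and day 7 libraries, as bars in CPM from 0 with the 95% exact Poisson interval, 1 panel for each gene. Sepp1 goes from 1882 to 4359 and then 333 CPM, while Gclm goes from 54.3 to 87.9 and 180.

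**Figure D2:**
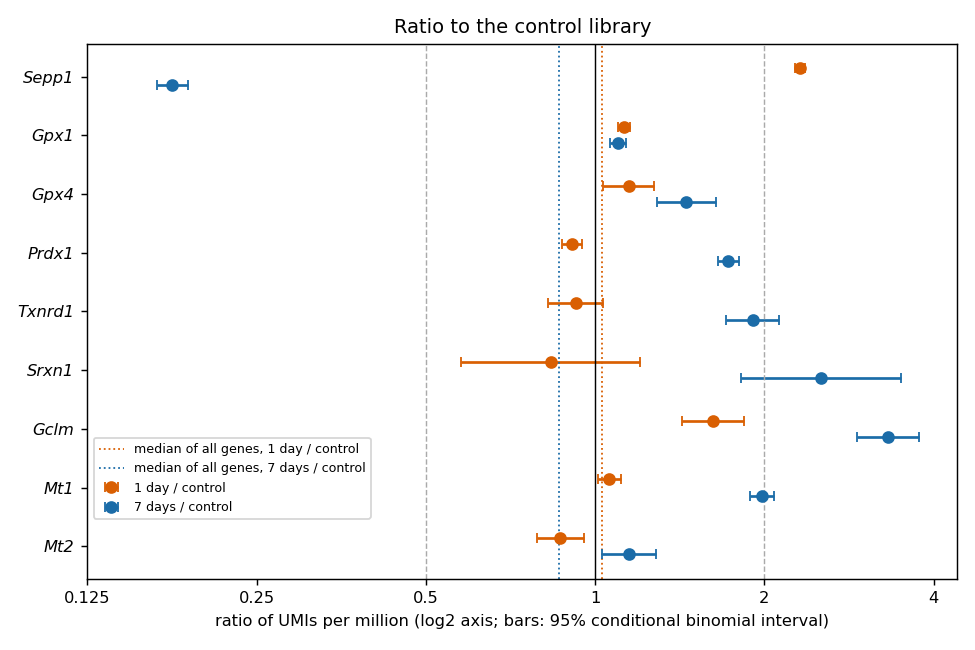
Ratio of each member in an injured library to control on a log2 axis, with bars for the 95% conditional binomial interval, with dotted lines for the median of all genes and dashed lines at 0.5 and 2. At day 7 p.i. 8 of the 9 members lie above 1, of which Gpx1 and Mt2 go below 1 when mitochondrial transcripts are left out, and Sepp1 lies at 0.177.

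Sepp1, the plasma carrier of selenium, had 15079 UMIs in control liver, 26623 at day 1 p.i. and 1020 at day 7 p.i. This gives 1882 CPM (1852 to 1912), 4359 CPM (4307 to 4411) and 333 CPM (313 to 355). None of these intervals overlap, and the ratio to control was 2.32 (2.27 to 2.36) at day 1 p.i. and 0.177 (0.166 to 0.189) at day 7 p.i. The ratio stayed between 2.10 and 2.46 at day 1 p.i. and between 0.147 and 0.367 at day 7 p.i. over all other settings tried. The upper of these day 7 values came from holding the shares of the classes as in control liver, while the change of shares with control levels in each class gave 0.752.

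In every library the sinusoidal endothelial-like class, the cells that line the liver's capillaries, had the highest Sepp1 level of all classes. It was 6749 CPM (6561 to 6940) in control liver, 9200 (8970 to 9434) at day 1 p.i. and 3879 (3394 to 4412) at day 7 p.i. Hepatocyte-like barcodes came next at day 1 p.i., at 4808 CPM (4640 to 4981), and the 21 of control liver, too few for a class, stood at 4522. Kupffer-like cells, the resident macrophages, stood at 2012, 3128 and 746 CPM. The Gpnmb/Arg1 macrophage-like class stood beside them in the control library at 2123 CPM, with overlapping intervals, and at only 186 CPM at day 7 p.i. T cell-like barcodes, which serve as a class not known for Sepp1, stood at 367, 2647 and 91.2 CPM.

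After each barcode was thinned to 300 UMIs, 84.2% of sinusoidal endothelial-like barcodes had a Sepp1 UMI in control liver, 91.1% at day 1 p.i. and 54.7% at day 7 p.i. The same shares were 40.3%, 58.4% and 16.1% in Kupffer-like barcodes and 9.85%, 47.2% and 1.71% in T cell-like barcodes. Without thinning they were 94.2%, 96.2% and 69.3% in the endothelial class and 21.4%, 68.3% and 3.73% in T cell-like barcodes, at median depths of 523, 510 and 517 UMIs and of 586, 497 and 440.5 UMIs. Thinning left out 26, 34 and 15 endothelial-like barcodes and 1, 8 and 17 T cell-like barcodes. The Sepp1 share was thus higher at day 1 p.i. also in a class not known to make it, and lay below that of the endothelial class in each library.

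Free RNA was read from the barcodes with fewer than 200 genes, which held 2018774, 2455421 and 1521054 UMIs and may include small or damaged cells. Sepp1 there stood at 958 CPM in control liver, 3590 at day 1 p.i. and 162 at day 7 p.i., and albumin (Alb), a hepatocyte product, at 348, 7503 and 300 CPM. These barcodes held 0.479 Sepp1 UMIs for each Alb UMI at day 1 p.i. The T cell-like class held 0.558, the natural killer-like class 0.483, the B cell-like class 0.459, the monocyte-like class 0.514 and the neutrophil-like class 0.513, all near the value of the free RNA. Kupffer-like cells held 0.814, sinusoidal endothelial-like cells 1.96 and hepatocyte-like cells 0.0736. The lymphoid, neutrophil-like and monocyte-like classes thus had about the Sepp1 to Alb ratio of free RNA at day 1 p.i., and no change of Sepp1 is read in them. In control liver the same barcodes held 2.75 Sepp1 UMIs for each Alb UMI, the monocyte-like class 3.61 and the neutrophil-like class 3.43, so their day 7 ratios are not read either. The Kupffer-like level at day 1 p.i., 3128 CPM, lay below that of barcodes under 200 genes, at 3590. Alb in this class stood at 3843 CPM against 123 in control liver, so no day 1 change of Sepp1 is read there. In endothelial-like cells Alb stood at 4704 CPM against 141. How far free RNA set their day 1 Sepp1 level was not tested.

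**Figure D3:**
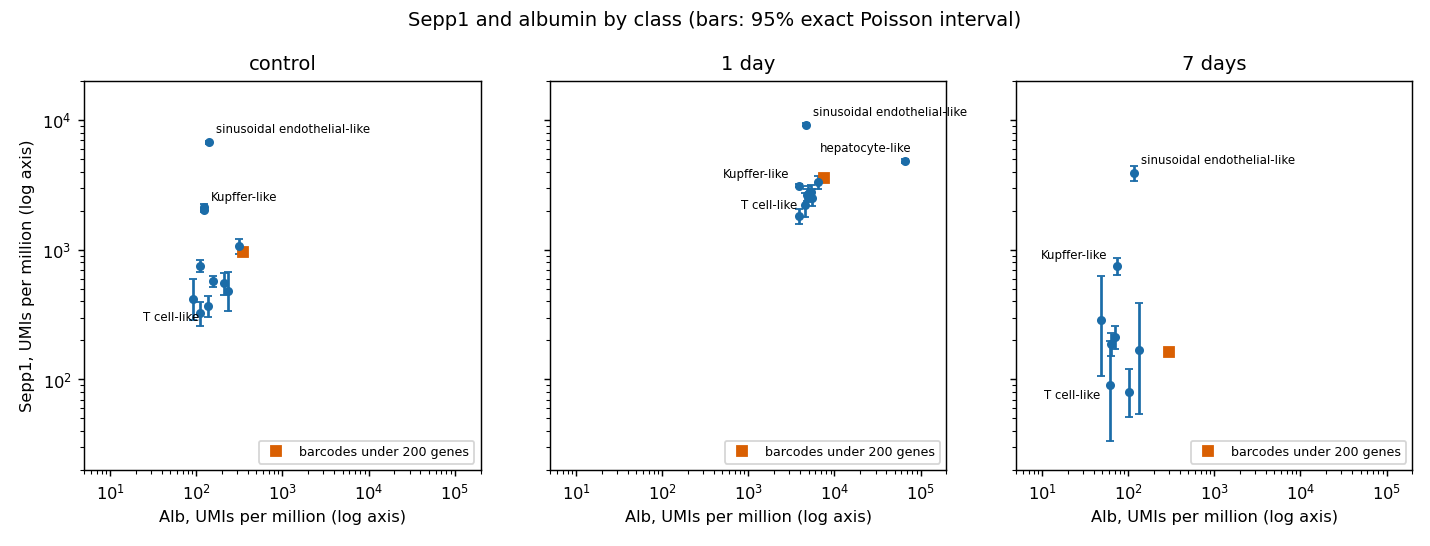
Sepp1 against albumin (Alb) by cell class in each library, both in CPM on log axes, with bars for the 95% exact Poisson interval of Sepp1 and a square for barcodes with fewer than 200 genes. At day 1 p.i. most classes sit near the square at 3590 CPM Sepp1 and 7503 CPM Alb, while the sinusoidal endothelial-like class lies above them at 9200.

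The endothelial result at day 7 p.i. rested on 101 barcodes and on how they were assigned. With classes taken from Leiden clusters in place of marker gates, Sepp1 in this class stood at 6015, 8529 and 5796 CPM, so its day 7 level was close to control. The ratio of Kupffer-like cells, 0.371 of control (0.316 to 0.432), rested on 172 UMIs at day 7 p.i. in 328 barcodes.

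The selenium-dependent glutathione peroxidases moved little in the library sums. Gpx1, the cytosolic enzyme that reduces hydrogen peroxide, had 13229, 11333 and 5548 UMIs, or 1651, 1855 and 1814 CPM. Its ratio to control was 1.12 (1.10 to 1.15) at day 1 p.i. and 1.10 (1.06 to 1.13) at day 7 p.i., and the latter was between 0.910 and 0.912 when mitochondrial transcripts or barcodes rich in them were left out, so no direction is given. Gpx4, which reduces lipid hydroperoxides in membranes, had 763, 667 and 423 UMIs, or 95.2, 109 and 138 CPM. Its ratio was 1.15 (1.03 to 1.27) at day 1 p.i. and 1.45 (1.29 to 1.64) at day 7 p.i., with a range of 1.20 to 1.68 over the other settings for day 7 p.i.

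By class, Gpx1 was highest in phagocytes. The Gpnmb/Arg1 macrophage-like class stood at 2860 CPM in control liver, with an interval that overlaps that of Kupffer-like cells at 2710, and monocyte-like cells followed at 2219. By day 7 p.i. Kupffer-like cells stood at 2866 and monocyte-like cells at 2330, ratios of 1.06 and 1.05, whereas the Gpnmb/Arg1 macrophage-like class stood at 1553, or 0.543 of control. The endothelial class was low in the control library at 441 CPM and stood at 883 at day 1 p.i. and 840 at day 7 p.i. Its ratio of 2.00 at day 1 p.i. came beside an Alb level of 4704 CPM in that class against 141 in control liver, and all its levels lay below those of barcodes under 200 genes, at 697, 1188 and 1175 CPM, so no change is read in it. Hepatocyte-like barcodes at day 1 p.i. held Gpx1 at 3223 CPM.

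Gpx4 was measured with few UMIs in each class, and neighbours in its order of levels overlapped in every library. In the control library it ran from 169 CPM in the Gpnmb/Arg1 macrophage-like class, 125 in the endothelial class and 93.6 in Kupffer-like cells down to 19.8 in neutrophil-like cells, the last from 4 UMIs. In Kupffer-like cells it was 186 CPM at day 7 p.i., a ratio of 1.99 (1.39 to 2.80) to control, beside 42.6 and 135 CPM in barcodes under 200 genes.

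The members of the peroxiredoxin and thioredoxin branch, Prdx1, Txnrd1 and Srxn1, stood above control at day 7 p.i. and not at day 1 p.i. Prdx1, the main cytosolic peroxiredoxin, had 5645, 3912 and 3720 UMIs, or 704, 640 and 1216 CPM, and its ratio at day 7 p.i. was 1.73 (1.66 to 1.80). Txnrd1, the cytosolic thioredoxin reductase and itself a selenoprotein, had 779, 548 and 567 UMIs, or 97.2, 89.7 and 185 CPM, a ratio of 1.91 (1.71 to 2.13). Srxn1, which restores hyperoxidised peroxiredoxins, had only 80, 51 and 77 UMIs, or 9.98, 8.35 and 25.2 CPM. Its ratio at day 7 p.i. was 2.52 with a wide interval of 1.82 to 3.49. The ratios of Prdx1, Txnrd1 and Srxn1 at day 1 p.i. were 0.909, 0.923 and 0.836, and all 3 crossed 1 under some other setting. Mitochondrial genes held 20.5% of UMIs in control liver and 4.10% at day 7 p.i., and without them the day 7 ratios were 1.43 for Prdx1, 1.58 for Txnrd1 and 2.09 for Srxn1. With barcodes of at least 500 genes, Srxn1 stood at 1.75, and the part of either in these ratios was not tested further.

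In control liver Prdx1 was highest in macrophages, with 1860 CPM in the Gpnmb/Arg1 macrophage-like class and 1044 in Kupffer-like cells. By day 7 p.i. these stood at 1585 and 1678, with overlapping intervals. Its larger ratios lay in classes that started lower. Monocyte-like cells went from 484 to 1057 CPM, a ratio of 2.19 (1.89 to 2.53), and endothelial-like cells from 417 to 1041, beside 197 and 469 in barcodes under 200 genes. Neutrophil-like cells, at 282, 413 and 206 CPM, had the lowest level of all classes at day 7 p.i., and their control level was 98.0 CPM with Leiden clusters.

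Txnrd1 was likewise highest in macrophages, though its interval overlapped that of the next class in every library. It stood at 172 CPM in the Gpnmb/Arg1 macrophage-like class and 142 in Kupffer-like cells of the control library, and at 254 and 160 at day 7 p.i. Its level in monocyte-like cells went from 58.5 to 156 CPM, a ratio of 2.67 (1.77 to 4.09), and in neutrophil-like cells from 64.3 to 154. In barcodes under 200 genes Txnrd1 went from 53.0 to 201 CPM, and no change within either class is read. How much of its level in either class was free RNA was not tested. Srxn1 was too rare for an order of classes, since the Gpnmb/Arg1 macrophage-like class, its highest in control liver, held 16 UMIs there and 14 at day 7 p.i., or 27.0 and 26.4 CPM. Ungated barcodes held 41 of its 77 UMIs at day 7 p.i.

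Gclm, the modifier subunit of the enzyme that starts glutathione synthesis, had the largest ratio to control of the 9 members at day 7 p.i. It had 435, 537 and 551 UMIs, or 54.3 CPM (49.3 to 59.6), 87.9 (80.6 to 95.7) and 180 (165 to 196). The intervals of the 3 libraries did not overlap, and the ratio to control was 1.62 (1.42 to 1.84) at day 1 p.i. and 3.32 (2.92 to 3.77) at day 7 p.i. It ranged from 1.39 to 1.79 and from 2.11 to 4.12 over the other settings. The lowest day 7 value came from barcodes with at least 500 genes. Other genes of glutathione synthesis did not share this pattern. Gclc, for the catalytic subunit of the same enzyme, stood at 2.36-fold at day 1 p.i. and 0.869 of control (0.639 to 1.17) at day 7 p.i. Gss, for the next enzyme, stood at 2.29-fold and then 0.913 (0.586 to 1.39). Both were named after their values were seen.

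Hepatocyte-like barcodes carried 130 of the 537 Gclm UMIs at day 1 p.i. (24.2%) at 203 CPM, and without them the day 1 ratio was 1.39. No barcode was hepatocyte-like at day 7 p.i., and Gclm was highest in Gpnmb/Arg1 macrophage-like cells at 235 CPM (196 to 280) and neutrophil-like cells at 206 (157 to 266), whose intervals overlap. Against control these were ratios of 2.74 and 2.98, and monocyte-like cells stood at 3.25 (1.91 to 5.71) from 21 and 49 UMIs. Kupffer-like cells went from 81.4 to 143 CPM, a ratio of 1.76 (1.17 to 2.58). Thinned to 300 UMIs, 1.42%, 2.18% and 4.75% of all barcodes held a Gclm UMI, beside 0.739%, 1.28% and 0.855% of T cell-like barcodes. Barcodes under 200 genes held Gclm at 31.2, 83.1 and 254 CPM. None of these class levels at day 7 p.i. stood above 254 CPM, and no change of Gclm within a class is read. T cell-like barcodes at day 7 p.i. held Gclm at 60.8 CPM, from 4 UMIs. Alb at day 7 p.i. stood at 64.0 CPM in Gpnmb/Arg1 macrophage-like and 101 in neutrophil-like cells, beside 300 in barcodes under 200 genes. How much of the Gclm of these classes was free RNA was not tested.

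The metallothioneins Mt1 and Mt2 differed from each other in the library sums. Mt1 had 3780, 3055 and 2861 UMIs, or 472 CPM (457 to 487), 500 (483 to 518) and 935 (901 to 970). Its ratio at day 7 p.i. was 1.98 (1.89 to 2.08), and it was past 2-fold under 5 of the other settings and at 1.64 without mitochondrial genes. Mt2 had 1064, 703 and 467 UMIs, or 133, 115 and 153 CPM. Its ratio at day 7 p.i. was 1.15 (1.03 to 1.28), which was between 0.913 and 0.954 when mitochondrial transcripts, barcodes rich in them or barcodes under 500 genes were left out, so no direction is given for its sum.

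A few hepatocyte-like barcodes held much of the control sum. The control library had 21 of them with 0.820% of its UMIs, and they carried 631 Mt1 UMIs (16.7% of the library's) and 346 Mt2 UMIs (32.5%). One barcode alone had 200 Mt1 and 93 Mt2 UMIs of its 16551. These barcodes stood at 9608 CPM for Mt1 and 5268 for Mt2, whereas the 282 hepatocyte-like barcodes of day 1 p.i. stood at 1042 and 277 CPM. The median share of Mt1 and Mt2 among a barcode's UMIs was 1.16% in the former and 0.0718% in the latter, with a UMI of either gene in 19 of 21 and 180 of 282. The median depths were 2559 and 1286 UMIs. Barcodes were few, the livers cannot be told apart, and this class was singled out after its values were seen. Without hepatocyte-like barcodes the day 7 ratios to control were 2.36 for Mt1 and 1.69 for Mt2.

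Among the other cells, Mt1 at day 7 p.i. was highest in Gpnmb/Arg1 macrophage-like cells, at 1757 CPM (1646 to 1873) against 875 (801 to 954) in the control library. Kupffer-like cells went from 332 and 341 to 854 CPM, and monocyte-like cells from 190 to 575. Endothelial-like cells stood at 718, 908 and 923 CPM, and neutrophil-like cells at 312, 363 and 199, so the day 7 ratio of Mt1 was 0.639 in the latter. Barcodes under 200 genes held Mt1 at 199, 339 and 452 CPM, below the day 7 levels of the macrophage, monocyte and endothelial classes and above that of neutrophil-like cells. With Leiden clusters the Gpnmb/Arg1 macrophage-like class went from 580 to 1176 CPM, which compares cluster 5 in control liver with cluster 0 at day 7 p.i. This gated class alone held 32.6% of the Mt1 UMIs at day 7 p.i. and 13.7% in the control library.

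Among classes of at least 30 barcodes, Mt2 was highest in endothelial-like cells in control liver, at 261 CPM (225 to 301), and at day 7 p.i., at 621 (437 to 856) from 37 UMIs. Kupffer-like cells went from 39.0 to 178 CPM, a ratio of 4.56 (3.02 to 6.80) that was the largest of any member in any class at day 7 p.i. with at least 50 UMIs. Mt1 and Mt2 UMIs stood at 3.55, 4.35 and 6.13 to 1 in the library sums. In Kupffer-like cells this ratio of UMI counts was 8.50, 6.44 and 4.80, and in endothelial-like cells 2.75, 4.72 and 1.49. At day 7 p.i. it was above control in monocyte-like (6.00 and 13.7), neutrophil-like (3.15 and 6.33) and Gpnmb/Arg1 macrophage-like cells (7.86 and 8.72). Intervals of control and day 7 p.i. overlapped in each of these classes but the endothelial. Several values rest on few Mt2 UMIs, as 9 in neutrophil-like cells at day 7 p.i.

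Some barcodes at day 7 p.i. held several metallothionein UMIs. Thinned to 300 UMIs, 0.668%, 0.391% and 2.76% of all barcodes held at least 3 Mt1 and Mt2 UMIs, and the share was 1.66% in control liver and 5.11% at day 7 p.i. in the Gpnmb/Arg1 macrophage-like class. The share with any Mt1 UMI in that class was 18.0% and 31.6%, and in Kupffer-like barcodes 9.55%, 8.75% and 18.8%, beside 3.20%, 6.38% and 4.27% in T cell-like barcodes. Before thinning it was 47.1% and 44.4% in the Gpnmb/Arg1 macrophage-like class, whose median depth was 924.5 UMIs in control liver and 523 at day 7 p.i.

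**Figure D4:**
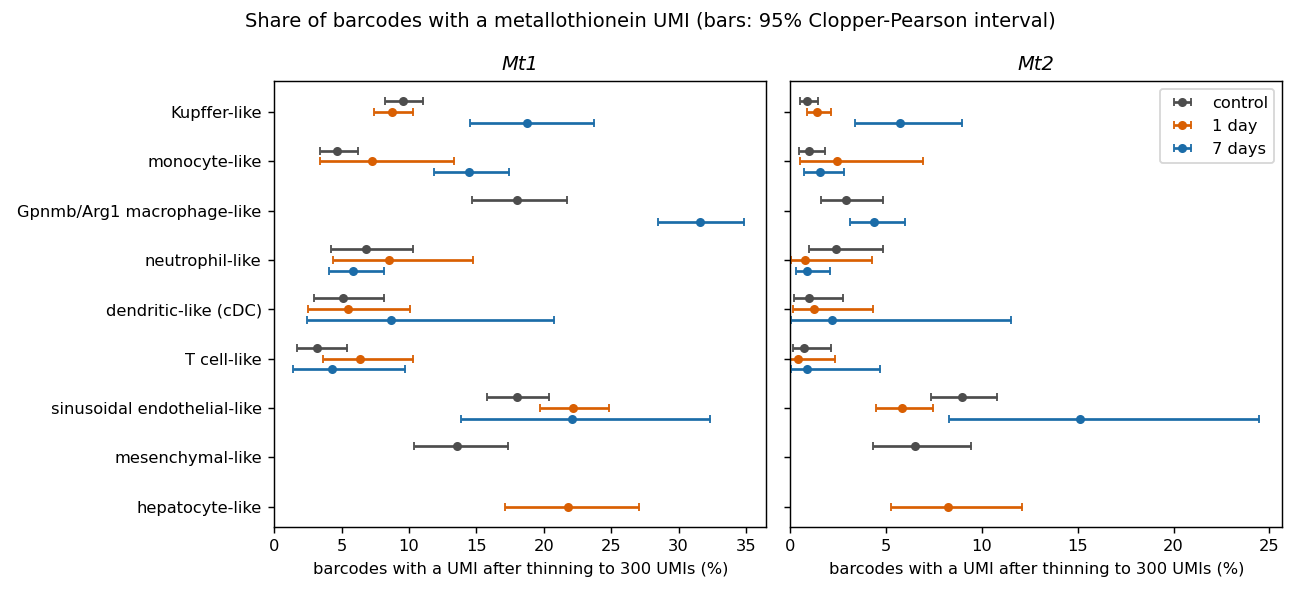
Share of barcodes (%) with an Mt1 UMI and with an Mt2 UMI by cell class and library after thinning to 300 UMIs, with bars for the 95% Clopper-Pearson interval. The Mt1 share in Gpnmb/Arg1 macrophage-like barcodes is 18.0% in the control library and 31.6% at day 7 p.i., whereas the 3 intervals of T cell-like barcodes overlap.

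Counted within classes, members with at least 50 UMIs in the libraries compared were set against all genes of the same class. In Kupffer-like cells none of 8 were past 2-fold at day 1 p.i., where 5.95% of genes were higher and 3.2% lower, and at day 7 p.i. Mt1 and Mt2 were higher and Sepp1 lower of 8, where 7.38% were higher and 9.79% lower. In monocyte-like cells at day 7 p.i., Prdx1, Txnrd1, Gclm and Mt1 were higher and Sepp1 lower of 7, where 13.8% were higher and 5.25% lower. In Gpnmb/Arg1 macrophage-like cells Gclm and Mt1 were higher and Sepp1 lower of 8, where 16.7% were higher and 11.9% lower. In neutrophil-like cells Gclm and Txnrd1 were higher and Sepp1 lower of 6, where 28.7% were higher and 18% lower, so the count of members lies near that of all genes. In endothelial-like cells Gpx1 was the 1 member of 8 past 2-fold at day 1 p.i., where 4.63% were higher and 2.17% lower, and at day 7 p.i. Prdx1, Txnrd1 and Mt2 were higher of 7, where 13.5% were higher and 12.1% lower. These counts include day 7 levels near or below that of barcodes under 200 genes and changes not read above, namely Sepp1 in monocyte-like and neutrophil-like cells, Gclm in every class, Txnrd1 in monocyte-like, neutrophil-like and endothelial-like cells, and at day 1 p.i. Gpx1 in endothelial-like cells. Mitochondrial transcripts made up 21.2% of UMIs in monocyte-like cells of control liver and 3.11% at day 7 p.i. The same shares were 12.0% and 3.46% in Gpnmb/Arg1 macrophage-like cells and 22.9% and 4.00% in endothelial-like cells. In Kupffer-like cells they were 13.7% and 2.96%. Class ratios keep these transcripts in the total, and ratios and counts without them were not taken. Since they held more of the control totals, leaving them out would lower each day 7 ratio in these classes. Mt1 in Gpnmb/Arg1 macrophage-like cells, at 2.01, would then fall below 2. Over 115 class levels taken without mitochondrial and hepatocyte marker genes, the median factor was 1.19 and none moved by over 1.5 times. With class shares held at control, the day 7 ratios were 2.87 for Gclm, 2.42 for Srxn1, 2.35 for Mt2, 2.27 for Mt1, 1.78 for Prdx1 and 1.76 for Txnrd1.

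**Figure D5:**
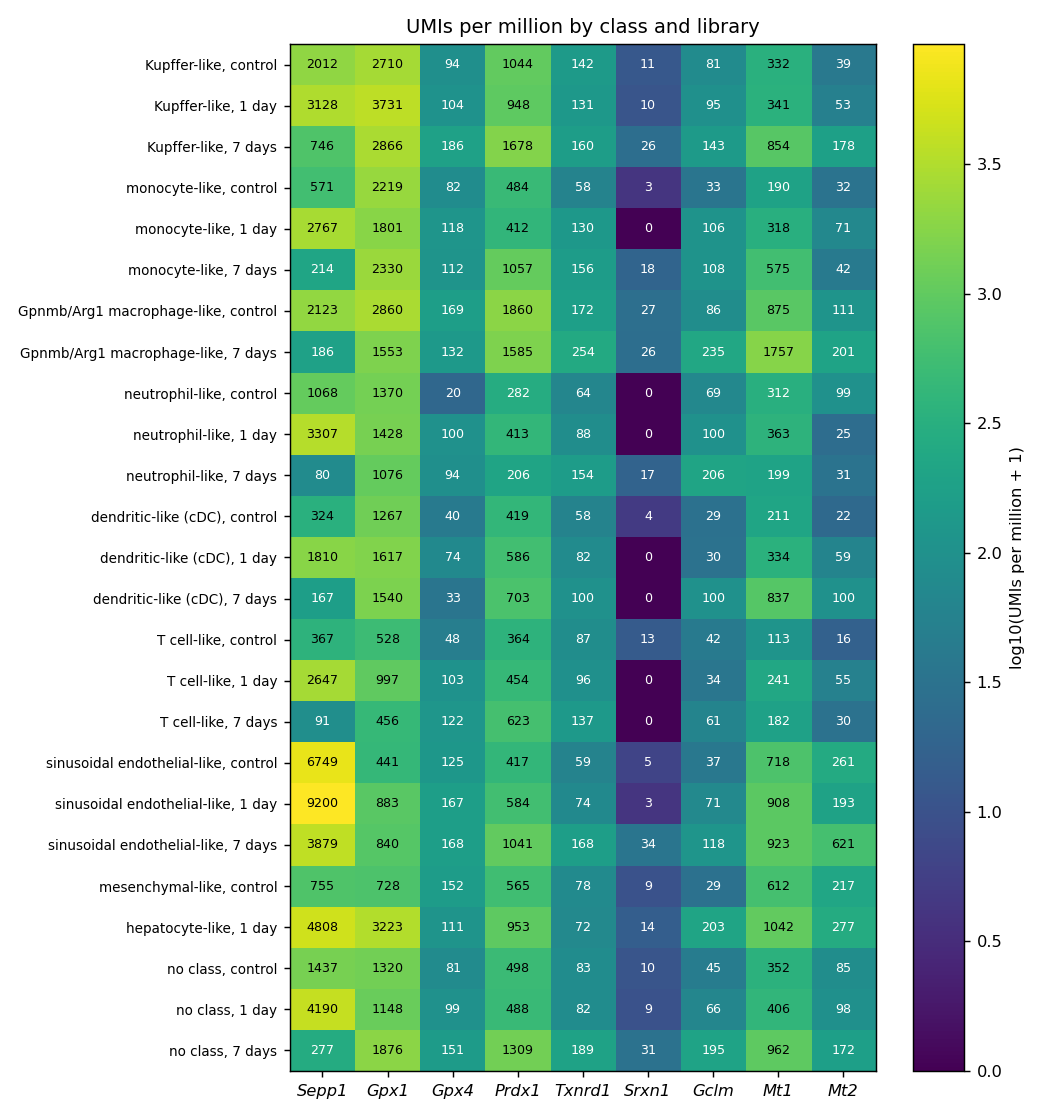
Level of each member by cell class, in libraries with at least 30 barcodes of the class, printed in CPM and coloured by log10 of CPM plus 1. Plasmacytoid-like, B cell-like, natural killer-like and cholangiocyte-like barcodes are not drawn. Ungated barcodes are shown as no class. Sepp1 is highest in the sinusoidal endothelial-like class in every library, and Prdx1 and Mt1 at day 7 p.i. are high in Kupffer-like and Gpnmb/Arg1 macrophage-like cells.

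Genes of the same pathways were read from 7 lists, which hold 80 genes that are no members. Of 74 with at least 50 UMIs, 16 were past 2-fold higher and 4 lower at day 1 p.i., and of 71 at day 7 p.i., 20 were higher and 10 lower. Over all genes 12.2% were higher and 5.86% lower at day 1 p.i., and 8.79% were higher and 21.8% lower at day 7 p.i. Among NRF2 target genes, 8 of 14 were higher at day 7 p.i. and none lower, with a median log2 ratio of 1.22, while at day 1 p.i. 3 of 15 were higher and 2 lower. Slc7a11, the cystine importer that feeds glutathione synthesis, stood at 5.12, 2.13 and 183 CPM, and its day 7 ratio was 35.8 (26.0 to 50.4). Hmox1, which degrades heme, stood at 6.07-fold of control at day 7 p.i. and Fth1, the ferritin heavy chain, at 5.06-fold. Of 8 genes for NRF2 and its partners, 3 were higher at day 7 p.i., namely Maff at 9.49-fold, the repressor Bach1 at 2.58-fold and Mafg at 2.47-fold. None of these 8 was past 2-fold at day 1 p.i., and Slc7a11 stood at 0.416 of control. All these ratios are over whole libraries. Gpnmb/Arg1 macrophage-like barcodes were 4.68% of control liver and 15.5% of day 7 p.i., and mitochondrial transcripts 20.5% and 4.10% of UMIs. How far the make-up of the punch or the total set the day 7 ratios was not tested.

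Other peroxide-handling genes were divided. Beside their counts, 8.79% of all genes were higher and 21.8% lower at day 7 p.i., and 12.2% and 5.86% at day 1 p.i. Of 12 peroxiredoxin and thioredoxin genes, 3 were higher and none lower at day 7 p.i., namely Prdx6 at 10.4-fold, the glutaredoxin Glrx at 6.46-fold and Prdx5 at 2.70-fold, and at day 1 p.i. 1 was higher, Prdx6 at 2.08-fold. Among superoxide and peroxide genes 1 of 5, the mitochondrial Sod2, was higher at 2.11-fold of control at day 7 p.i. and 3 were lower, namely the plasma glutathione peroxidase Gpx3 at 0.138 of control, the extracellular superoxide dismutase Sod3 at 0.342 and the cytosolic Sod1 at 0.446. Selenoprotein genes other than the members went both ways, with 4 higher and 2 lower of 13 at day 7 p.i. and 3 higher and 1 lower of 15 at day 1 p.i. Msrb1, a methionine sulfoxide reductase, stood at 3.46-fold of control at day 7 p.i., and Selm at 0.204. In the glutathione list 2 of 13 were higher at day 7 p.i., Slc7a11 and the glutathione reductase Gsr at 3.90-fold, and 3 were lower, all glutathione transferases. Sod2 and Gsr were named after their values were seen.

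The list genes with the largest ratios at day 1 p.i. are known from hepatocytes. Glutathione list genes were higher in 7 of 13 and lower in 3, led by the glutathione transferases Gsta3 at 14.4-fold, Gstt1 at 12.2-fold and Gstm1 at 5.11-fold. Of all genes 12.2% were higher and 5.86% lower at day 1 p.i., and 8.79% and 21.8% at day 7 p.i. The selenoprotein Dio1, a thyroid hormone deiodinase, stood at 43.7-fold (14.5 to 216) from 3 UMIs in control liver. Of 5 superoxide and peroxide genes catalase (Cat) stood at 4.93-fold and Gpx3 at 0.322. Beside these, Alb stood at 533 CPM in control liver and 11571 at day 1 p.i., with 282 hepatocyte-like barcodes holding 59.1% of it, and how far hepatocytes or their free RNA set these ratios was not tested. Metal handling genes were higher in 3 of 12 at day 1 p.i., namely the copper protein ceruloplasmin (Cp) at 6.04-fold and the zinc importers Slc39a14 at 2.67-fold and Slc39a8 at 2.14-fold. Of the same 12, 1 was higher and 3 lower at day 7 p.i., with Slc39a14 at 2.54-fold, Slc39a8 at 0.153, Cp at 0.403 and Slc39a10, a further zinc importer named after its value was seen, at 0.498.

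The pattern of each member over 34 sums of a class in a library was compared with 4730 genes by Pearson's r of log2 levels, as a description over points that share libraries and depth. Sepp1 was most like the endothelial genes Stab2 (0.94), Clec4g (0.92) and Epas1 (0.92). Mt1 was most like Fabp5 (0.77), itself a marker used for the Gpnmb/Arg1 macrophage-like class, and Mt1 and Mt2 had r = 0.72 with each other. Gclm was most like the predicted gene Gm2382 (0.76) and then Txnrd1 (0.71). Gpx1 was most like Ctsh (0.89), Gpx4 like Serinc1 (0.89), Prdx1 like Calr (0.85), Txnrd1 like Ykt6 (0.80) and Srxn1, with its few UMIs, like C3ar1 (0.71). Among members, Prdx1 had r = 0.61 with Mt1 and 0.60 with Gpx4, and Sepp1 had no r above 0.36 with another member.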

How the data were processed

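Drop-seq libraries of dissociated mouse liver were sequenced, 1 per group. Per the file headers, the authors made the deposited counts (UMIs of each gene in each barcode) with Drop-seq software from sense-strand reads on coding and UTR bases. The submitters' processing notes name STAR 2.5.2a and the build hg19, a human build, although the gene symbols are those of mouse. The headers state a minimum of 200 genes, yet barcodes with as few as 11 genes are present, so barcodes with at least 200 genes were used. A mapping quality filter can undercount genes with near-identical copies, such as Prdx1 and Gpx4. A barcode joined a class with at least 2 of its markers, 1 more than any other class, beyond what free RNA gives, and hepatocyte-like barcodes had at least 10% of UMIs in hepatocyte markers. Doublets were not removed. Classes with at least 30 barcodes were used. A gene was called past 2-fold at a ratio of at least 2 or at most 0.5 with at least 50 UMIs in the libraries compared. Named list genes were up to 3 per list with the largest log2 ratio in each comparison with control, and for likeness the 3 genes with the highest r of log2(CPM + 10), among genes with at least 500 UMIs. Analysis used Python 3.11.15, pandas 2.3.3, scipy 1.17.1 and scanpy 1.11.5, and interval code was tested on simulated data. Other barcode filters, scalings, gates and Leiden clusters were tried. Members and lists were chosen with earlier results of these data known.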

Additional observations from a re-analysis of the deposited data

Results flagged for a closer look

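The same contrast went opposite ways in different classes for Gpx1 and Mt1. Gpx1 at day 7 p.i. stood at 1.91-fold of control in sinusoidal endothelial-like cells and at 0.543 in Gpnmb/Arg1 macrophage-like cells, where the endothelial levels lay below those of barcodes under 200 genes. Mt1 at day 7 p.i. stood at 3.97-fold of control in conventional dendritic-like cells, from 25 UMIs in 52 barcodes, and at 0.639 in neutrophil-like cells. These differences between classes were not tested, since each library is 1 sample.

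Barcodes with fewer than 200 genes, which the comparisons leave out, also held members above their control level. The ratios there at day 1 p.i. were 3.75 for Sepp1, 2.66 for Gclm and 6.30 for Srxn1. At day 7 p.i. they were 8.13 for Gclm, 3.80 for Txnrd1, 3.16 for Gpx4, 2.38 for Prdx1, 2.27 for Mt1 and 21.2 for Srxn1, the last with an interval of 6.84 to 107 because the control library held 3 UMIs. The day 7 level of Gclm was higher in these barcodes, at 254 CPM (229 to 280), than in barcodes with at least 200 genes, at 180 (165 to 196). Levels of Srxn1, at 31.6 and 25.2 CPM, and of Txnrd1, at 201 and 185 CPM, had overlapping intervals.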

How the results depend on the processing

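No paired analysis was possible because each group is 1 library, and no library could be left out. No called ratio reversed under the settings tried. The count of members past 2-fold at day 1 p.i., 1, was 1 under all of them. At day 7 p.i. against control the count of 3 became 5 without the deepest 5% of barcodes, with median-of-ratios scaling, with the mean over barcodes and with class shares held at control, and was 2 to 4 under the others. At day 7 against day 1 p.i. the count of 4 became 1 with barcodes of at least 500 genes and 2 with barcodes of at most 20% mitochondrial UMIs, without mitochondrial genes, and without mitochondrial and hepatocyte marker genes, and was 4 to 6 under the others. With at least 500 genes the day 7 ratio of Srxn1 to control was 1.75. The causes were not tested, though leaving out mitochondrial genes removes 4.10% of UMIs at day 7 p.i. and 20.5% in the control library. Leaving out hepatocyte-like barcodes was added after the data were seen. Of class levels, 10 of 103 moved by over 1.5 times with Leiden clusters, 4 of 95 with at least 500 genes and 1 of 113 with at least 3 markers. Depth limits Srxn1, with 51 to 80 UMIs in a library, and every class of fewer than 150 barcodes. Sham surgery, time and the pool of animals cannot be told apart from the groups.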
